A study of Mus musculus with 4 samples.

Results

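Platelet-derived growth factor (PDGF) signalling was described at the RNA level through 6 genes, taken by name from the 25965 genes of the table. They are the 4 ligand genes Pdgfa, Pdgfb, Pdgfc and Pdgfd and the 2 receptor genes Pdgfra and Pdgfrb. Polyadenylated RNA had been sequenced from 4 cultures of vascular smooth muscle cells (VSMCs), which form the muscular layer of arteries. The cells were grown from the medial layer of the aorta in medium with 10% serum for 3 to 5 passages. The donor mice were healthy males of wild-type genotype on the C57Bl/6 background, 8 to 14 weeks old. All 4 libraries form 1 group without a treatment or a comparison group, and the labels do not say whether each came from a separate mouse. Serum is itself a source of PDGF, and every culture was exposed to it.

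PDGF ligands are secreted dimers that bind receptor tyrosine kinases at the cell surface, and the bound receptors pair up and phosphorylate each other. PDGF-A and PDGF-C dimers act mainly through PDGFRA, PDGF-D dimers mainly through PDGFRB, and PDGF-B dimers through either receptor. In the artery wall PDGF-B is classically supplied by endothelium and platelets, and PDGFRB is carried by smooth muscle cells and pericytes. PDGFRA is widely used as a marker of fibroblasts. PDGF-BB drives cultured VSMCs to migrate, divide and lose contractile proteins.

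The libraries held 40342561 to 56793195 reads on genes, recovered from the deposited values. If the deposited scale is CPM, these are 1.83 to 1.94 times the totals that it implies. What was counted as a read is not stated, so read counts and their counting intervals hold only for the unit in which the deposited values step. Library 3 was the shallowest and had the most mitochondrial reads, 0.382% against 0.0653% to 0.133% in the others. Levels are log2 scaled read counts, and 1 read was worth between 0.0340 and 0.0455 on the linear scale. A gene counted as detected when its log2 value was at least 0 in 4 of 4 libraries, which took 22 to 30 reads. By this rule 47.4% of all genes were detected, and all 6 PDGF genes were. The smooth muscle markers Acta2 (12.18 ± 1.05, SD, n = 4), Myh11 (7.44 ± 1.65) and Tagln (11.48 ± 0.71) were present, and 9 of 10 listed contractile markers were detected. Myocd, the coactivator that drives contractile genes, was the exception with 51, 14, 12 and 53 reads in libraries 1 to 4.

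Promoter sequence from RefSeq (build GRCm38.p6) was found for 4 of the 6 genes. The 250 bases before the annotated start were searched on both strands for 6 motifs. These were the TATA box (TATAAA), the CCAAT box, the GC box (GGGCGG), the AP-1 site (TGANTCA), the EGR site (GCGNGGGCG) and the CArG box. Matches of different motifs did not overlap in these windows. The CArG box is the binding sequence of serum response factor, the regulator of serum-induced and contractile smooth muscle genes. The windows of a ligand with a CArG match, a ligand with a TATAAA match, the receptor with the widest spread between libraries and the leading ligand are shown, with motif matches in capitals.
Pdgfc, chr3:81036166-81036415, plus strand: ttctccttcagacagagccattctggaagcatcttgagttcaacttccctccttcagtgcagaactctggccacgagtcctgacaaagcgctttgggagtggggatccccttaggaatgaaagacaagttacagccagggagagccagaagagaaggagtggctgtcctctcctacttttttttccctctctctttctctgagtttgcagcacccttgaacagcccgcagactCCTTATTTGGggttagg
Pdgfd, chr9:6168236-6168485, plus strand: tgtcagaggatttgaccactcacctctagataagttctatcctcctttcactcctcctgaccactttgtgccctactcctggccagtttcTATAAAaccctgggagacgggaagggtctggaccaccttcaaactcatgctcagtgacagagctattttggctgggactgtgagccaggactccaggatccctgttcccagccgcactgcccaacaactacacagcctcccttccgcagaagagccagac
Pdgfra, chr5:75152001-75152250, plus strand: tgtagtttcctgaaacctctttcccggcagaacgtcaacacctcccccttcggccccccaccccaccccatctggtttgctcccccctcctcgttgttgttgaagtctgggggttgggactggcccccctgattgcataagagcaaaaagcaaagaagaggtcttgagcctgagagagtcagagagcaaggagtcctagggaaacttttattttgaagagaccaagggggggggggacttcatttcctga
Pdgfa, chr5:138995038-138995194, minus strand: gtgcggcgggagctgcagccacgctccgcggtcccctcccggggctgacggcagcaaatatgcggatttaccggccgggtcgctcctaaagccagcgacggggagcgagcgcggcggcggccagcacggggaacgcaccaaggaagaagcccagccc

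The Pdgfc window held 1 CArG box, CCTTATTTGG, from 17 to 8 bases before the start, and 1.47% of 32851 windows of the same length held such a box. The Pdgfd window held TATAAA from 160 to 155 bases before the start, a sequence found in 12.4% of all windows. None of the 6 motifs was found in the Pdgfra window. RefSeq gave 2 windows for Pdgfa, neither at the outermost end of the gene in the table, and the upper window held GGGCGG at 2 places and the lower at 1, against 32.7% of all windows with at least 1. The Pdgfa sequence shown is the 157-base stretch of the upper window that lies outside annotated Pdgfa exons, so the GC boxes fall beyond it. The Pdgfa windows were the richest in G and C, at 72.4% and 66.4%, against 50.8% for Pdgfc, 53.6% for Pdgfd, 54.4% for Pdgfra and a median of 52.4% over all windows. These matches describe the letters only.

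Pdgfrb, the PDGFRB receptor gene, had the highest level of the 6 genes (chromosome 18, 61045150 to 61085061, GRCm38). Its log2 values were 10.10, 8.95, 9.40 and 9.61 in libraries 1 to 4, from 31991, 14309, 14905 and 23010 reads. Library 1 was highest and library 2 lowest, 2.22-fold apart, and the mean was 9.52 ± 0.48 (SD, n = 4). On this deposited scale 53.6% of all detected genes were highest in library 1. After median-ratio scaling the Pdgfrb values were 9.78, 8.86, 9.70 and 9.73, with library 1 little above libraries 3 and 4. Per kilobase of exon its mean of 7.06 ± 0.48 lay above that of 93.8% of detected genes.

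Pdgfra, the other receptor gene, was lower and differed far more between libraries (chromosome 5, 75152291 to 75198204). Its values were 7.17, 6.77, 4.92 and 4.83 in libraries 1 to 4, from 4201, 3149, 666 and 838 reads. Libraries 1 and 2 thus held clearly more Pdgfra than libraries 3 and 4, and the highest and lowest libraries were 5.07-fold apart. The exact 95% counting interval was 6.72 to 6.82 in library 2 and 4.81 to 5.03 in library 3, so counting error was small beside this gap. The mean was 5.92 ± 1.22, and 2.58% of detected genes had a larger SD. In bulk RNA, fewer cells of a type and less RNA per cell cannot be told apart.

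Receptor transcripts were therefore dominated by Pdgfrb in every library, to a varying degree. Per exon length Pdgfrb was 13.9-fold, 8.31-fold, 41.0-fold and 50.2-fold above Pdgfra in libraries 1 to 4. Pdgfra made up 11.6% of receptor reads in library 1 (exact 95% binomial interval 11.3% to 11.9%) and 18.0% in library 2 (17.5% to 18.6%). In library 3 it was 4.28% (3.96% to 4.61%) and in library 4 3.51% (3.28% to 3.76%). Such intervals describe counting error alone, since amplified reads are not single molecules.

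Pdgfa, the classical PDGF-A chain, was the leading ligand gene (chromosome 5, 138976014 to 138997370). Its values were 7.82, 7.31, 7.54 and 8.09 in libraries 1 to 4, from 6572, 4579, 4105 and 8031 reads. The mean was 7.69 ± 0.34, with 1.73-fold between the highest and lowest libraries. This SD was the lowest of the 6 genes over all 4 libraries, but without library 1 those of Pdgfd (0.25) and Pdgfrb (0.34) were below that of Pdgfa (0.40). After median-ratio scaling Pdgfa spanned 2.00-fold and Pdgfrb 1.90-fold. Library 1 lay above library 3 on the deposited scale (7.82 against 7.54) and below it after median-ratio scaling (7.50 against 7.84).

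Pdgfc encodes a ligand with an N-terminal CUB domain that has to be cut off before the dimer can signal (chromosome 3, 81036416 to 81214040). Its values were 5.80, 4.96, 6.31 and 6.47, with a mean of 5.88 ± 0.68. On the deposited scale library 2 was low, and without it the SD was 0.35. After median-ratio scaling the Pdgfc values were 5.48, 4.86, 6.60 and 6.59 (SD 0.86), with libraries 1 and 2 both below libraries 3 and 4.

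Pdgfd encodes the other CUB-domain ligand (chromosome 9, 6168612 to 6378843). Its values were 5.65, 4.25, 4.57 and 4.74, with a mean of 4.80 ± 0.60. Here library 1 was high on the deposited scale, and without it the SD was 0.25. After median-ratio scaling the Pdgfd values were 5.33, 4.15, 4.87 and 4.87, with library 1 above and library 2 below libraries 3 and 4.

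Pdgfb, the PDGF-B chain, was the lowest of the 6 genes (chromosome 15, 79995900 to 80014808). It had 117, 82, 171 and 455 reads in libraries 1 to 4, or log2 values of 2.01, 1.50, 2.96 and 3.95. The mean was 2.61 ± 1.08, and 4.22% of detected genes had a larger SD. Library 4 was 5.46-fold above library 2, and their exact 95% counting intervals of 414 to 499 and 65.2 to 102 reads did not overlap. The libraries high in Pdgfb were those low in Pdgfra.

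**Figure D1:**
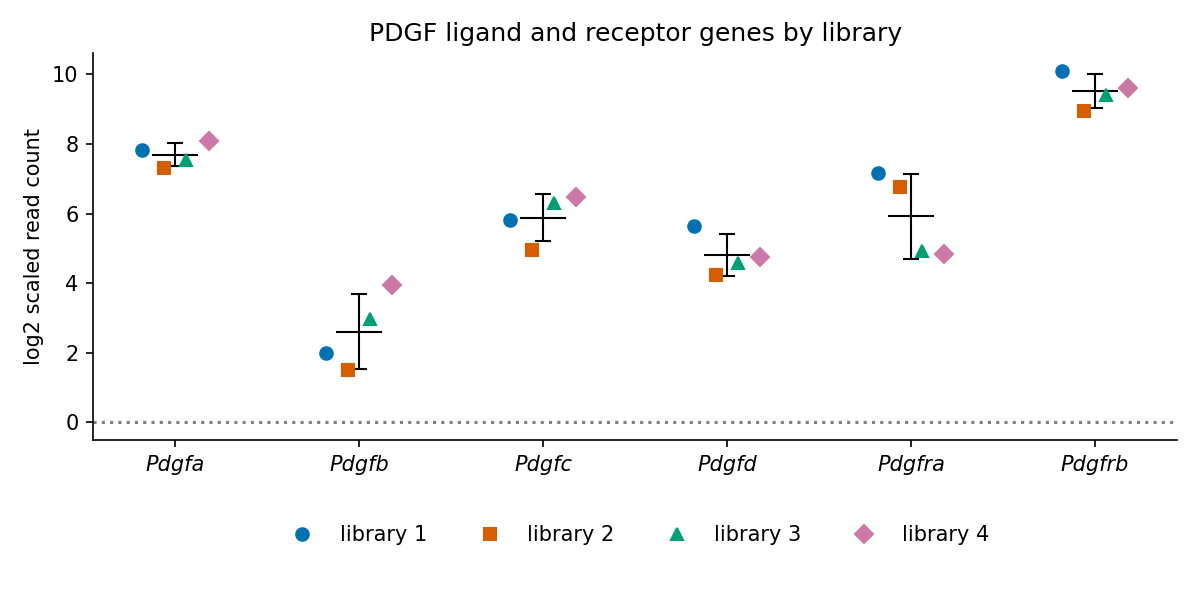
Log2 scaled read count (vertical axis) of the 6 PDGF genes in libraries 1 to 4, with the mean and SD over libraries as a bar and whiskers and the detection threshold of 0 dotted. Pdgfra lies at 7.17 and 6.77 in libraries 1 and 2 and at 4.92 and 4.83 in libraries 3 and 4, while Pdgfa stays between 7.31 and 8.09.

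An SD above 0.5 between libraries was found for 4 of the 6 genes, namely Pdgfra, Pdgfb, Pdgfc and Pdgfd, against 40.5% of all detected genes. A count over 6 genes does not set them apart from that share. After median-ratio scaling it was found for 3, because the SD of Pdgfd was then 0.49, against 30.7% of all detected genes. That scaling moved the median of detected genes by -0.32, -0.10, 0.30 and 0.12 in libraries 1 to 4. Pdgfra kept its order on that scale, with 6.85, 6.67, 5.22 and 4.95, and its highest and lowest libraries were 3.73-fold apart. Pdgfb became 6.34-fold apart, with 1.69, 1.41, 3.25 and 4.07.

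Levels of different genes were compared per kilobase of exon within each library, to ask in which order the transcripts stand. The order of the means was Pdgfrb (7.06 ± 0.48), Pdgfa (6.05 ± 0.34), Pdgfc (3.54 ± 0.68), Pdgfd (3.15 ± 0.60), Pdgfra (2.60 ± 1.22) and Pdgfb (0.55 ± 1.08). Pdgfrb and Pdgfa stood apart from the rest, and Pdgfa lay above 88.2% of detected genes and Pdgfb above 15.4%. Of the 15 pairs, 11 had 1 sign in 4 of 4 libraries. A two-sided exact permutation test that flips the signs of the 4 differences cannot give less than p = 0.125. These 11 pairs reached that value, with a Benjamini-Hochberg adjusted p of 0.170 over 15 tests, so no pair passed 0.05 by this test. With no separate mice named in the labels, these p-values measure only the spread between the libraries.

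**Figure D2:**
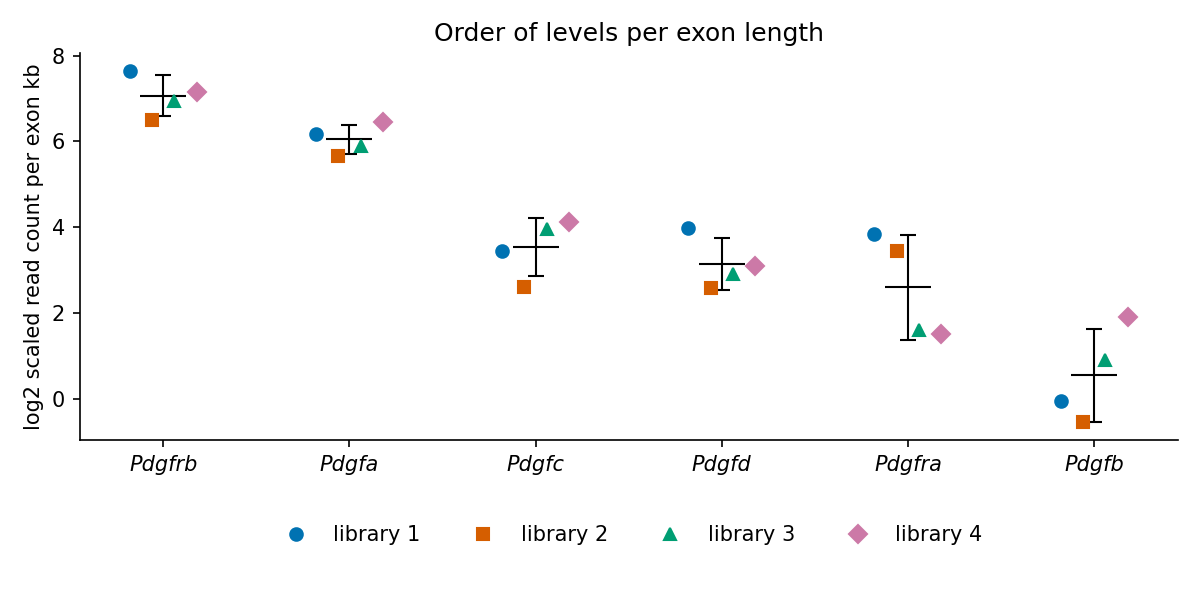
Log2 scaled read count per exon kilobase (vertical axis) of the 6 genes, ordered by mean, with the mean and SD over libraries as a bar and whiskers. Pdgfrb and Pdgfa lie above all other points, between 5.67 and 7.65, and the points of Pdgfc, Pdgfd and Pdgfra overlap.

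Pdgfrb exceeded Pdgfa by 1.01 ± 0.34 log2 units, or 2.02-fold, in 4 of 4 libraries (1.63-fold to 2.77-fold). This step depended on which transcript length was used. It was 0.43 with the longest transcript and -0.56 with the coding length, where Pdgfa was the higher gene. Pdgfa exceeded the next ligand, Pdgfc, by 2.51 ± 0.48, or 5.71-fold, and Pdgfb by 5.50 ± 0.85, or 45.3-fold, each in 4 of 4 libraries. Pdgfrb exceeded Pdgfra by 4.47 ± 1.24, or 22.1-fold, with single libraries from 8.31-fold to 50.2-fold. It was 15.2-fold with the longest transcript and 11.9-fold with the coding length, where single libraries ran from 4.49-fold to 27.1-fold.

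Per exon length the lower neighbours were not separated. Pdgfc minus Pdgfd was -0.54, 0.02, 1.05 and 1.03 in libraries 1 to 4 (exact p = 0.375, adjusted p = 0.402). With the coding length this difference was 0.26, 0.81, 1.84 and 1.82, with Pdgfc the higher gene in 4 of 4 libraries (mean 1.18, exact p = 0.125). Pdgfd minus Pdgfra was 0.14, -0.85, 1.32 and 1.58 (exact p = 0.375, adjusted p = 0.402). Pdgfra minus Pdgfb was 3.90, 3.99, 0.69 and -0.39 (exact p = 0.25, adjusted p = 0.312), so that the receptor gene stood far above the ligand gene in libraries 1 and 2 and close to it in libraries 3 and 4. Pdgfc minus Pdgfra was the other pair of mixed sign, at -0.39, -0.83, 2.37 and 2.61 (exact p = 0.5, adjusted p = 0.5). The number of pairs with 1 sign in 4 of 4 libraries was 11 with the longest transcript, 12 with the coding length and 14 without division by length.

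**Figure D3:**
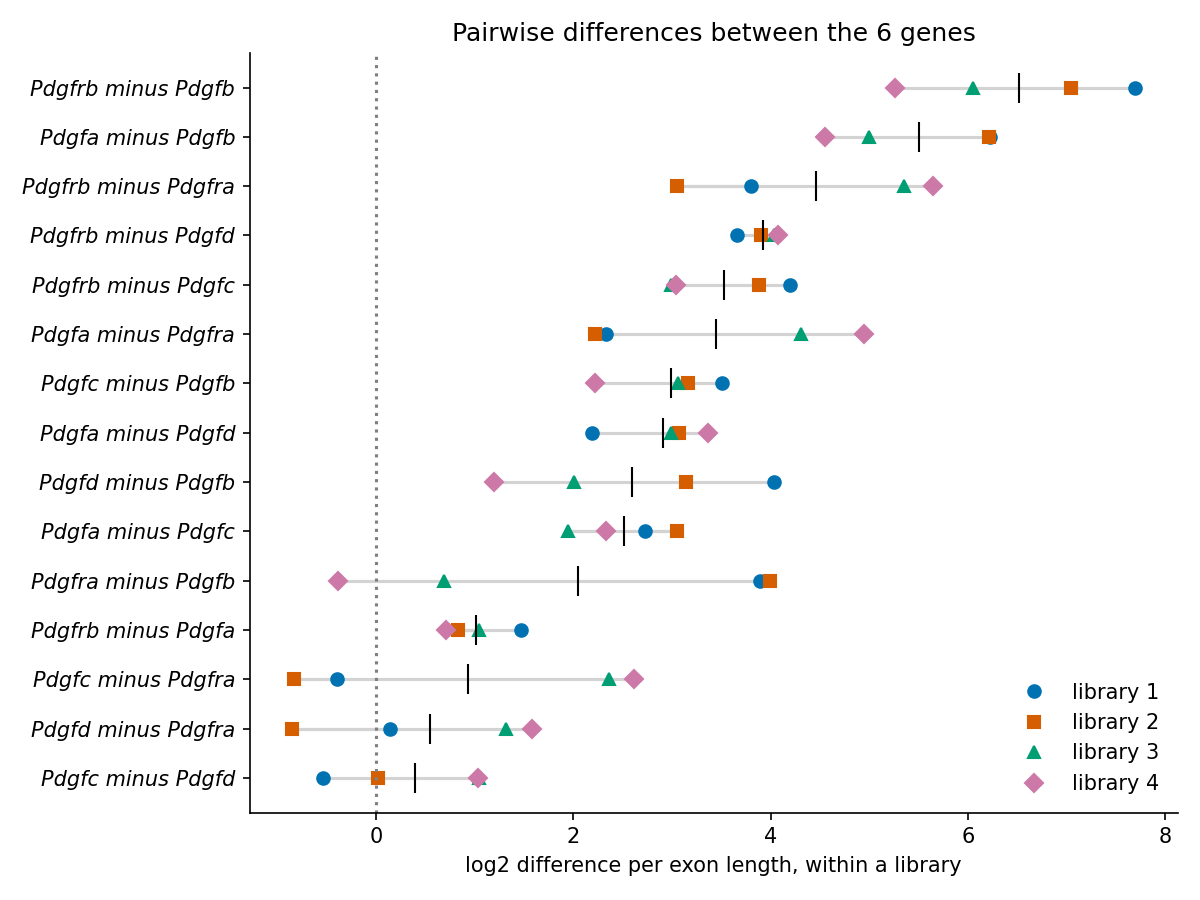
Within-library log2 difference per exon length (horizontal axis) for the 15 pairs, with 1 point for each library, a black tick at the mean and 0 dotted. The 4 pairs whose points lie on both sides of 0 are Pdgfra minus Pdgfb, Pdgfc minus Pdgfra, Pdgfd minus Pdgfra and Pdgfc minus Pdgfd.

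Pdgfa took most of the ligand transcripts in each library. Per exon length its share was 72.2%, 79.9%, 70.6% and 74.7% of the 4 ligand genes in libraries 1 to 4. Pdgfc held 10.9%, 9.61%, 18.4% and 14.8%, and Pdgfd 15.9%, 9.47%, 8.87% and 7.25%. Per exon length the second ligand was therefore Pdgfd in library 1 and Pdgfc in libraries 3 and 4, with the values nearly equal in library 2. With the coding length it was Pdgfc in every library, at 11.7% against 9.78% for Pdgfd in library 1. Pdgfb held 0.964%, 1.07%, 2.20% and 3.17%. The 2 receptor genes together were 2.15-fold, 1.59-fold, 1.49-fold and 1.24-fold the sum of the ligands per exon length. This ratio depended on the length used, and with the coding length it was 0.816, 0.607, 0.531 and 0.436, below 1 in every library. With the longest transcript it was 1.57, 1.16, 1.05 and 0.866.

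**Figure D4:**
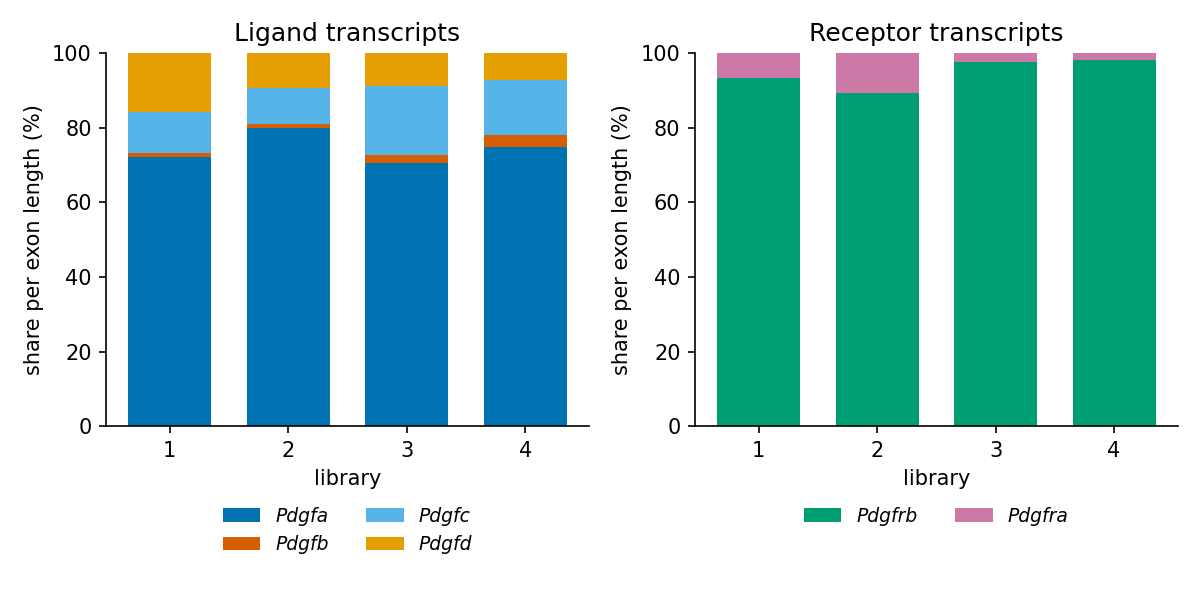
Share of each gene per exon length in percent (vertical axis) among the 4 ligand genes (left) and the 2 receptor genes (right) in libraries 1 to 4. Pdgfa fills 70.6% to 79.9% of each ligand bar and Pdgfrb 89.3% to 98.0% of each receptor bar.

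Antisense genes that the table also lists overlap the exons of 2 ligand genes, and whether counting used strand is not given in the sources used here. 6330403L08Rik shares 813 exon bases with Pdgfa and had 677, 395, 353 and 699 reads, or 10.3%, 8.63%, 8.60% and 8.70% of the Pdgfa reads. Gm16000 shares 147 exon bases with Pdgfc and had 97, 62, 120 and 171 reads, or 5.98%, 6.90%, 6.89% and 6.57% of the Pdgfc reads. Each antisense gene thus kept a nearly constant ratio to its partner across libraries, and reads of the partners cannot be told apart without strand. Pdgfra also shares 456 exon bases with Gm42802 and 166 with Gm42803 on the opposite strand, and neither of these has values here.

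Among the 6 genes the profiles over libraries were compared by the root-mean-square difference of log2 values after each gene's mean was removed. Pdgfd and Pdgfrb were most alike, at 0.16 log2 units, both highest in library 1 and lowest in library 2. Pdgfb and Pdgfra were least alike, at 1.94. The same measure was taken against 10142 detected genes whose mean log2 value reached 2. With 4 libraries many genes share a profile closely, and 70, 11, 114 and 461 of them lay within 0.25 of Pdgfra, Pdgfb, Pdgfc and Pdgfd.

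Among the 5 genes nearest to Pdgfra were Ralgds (0.076), Cdh2, which encodes N-cadherin (0.081), Rftn1 (0.093) and Snx10 (0.095). Cdh2 had values of 8.20, 7.89, 6.15 and 6.05, high in libraries 1 and 2 as Pdgfra was. Nearest to Pdgfb were Htra1, a secreted serine protease gene (0.11), Npr1, a natriuretic peptide receptor gene (0.12), Ace, the angiotensin-converting enzyme gene (0.15), Csrp1, a LIM protein gene of smooth muscle (0.16), and Crispld1 (0.17). Ace had 5.28, 4.96, 6.66 and 7.40, highest in library 4 as Pdgfb was. Nearest to Pdgfc were Kirrel3 (0.045), Podn (0.068), Abcb1a (0.071), Zbtb46 (0.075) and Hr (0.078). Nearest to Pdgfd were Gpsm1 (0.040), Klf7 (0.049), Aldh6a1 (0.050), Zfp329 (0.058) and Fhl1 (0.059).

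Several fibroblast markers were high and low in the same libraries as Pdgfra. Of 12 adventitial fibroblast markers 11 were detected, and the list median was 6.84, 6.99, 4.91 and 4.09 in libraries 1 to 4. Dpt, which encodes the matrix protein dermatopontin, had 7.15, 7.02, 2.32 and 1.92. Serpinf1 had 8.53, 8.28, 4.86 and 4.18, and Pi16 4.03, 4.01, 2.72 and 1.75. The summed level of the list was 12.36, 12.20, 11.82 and 11.88, a narrower range, because Gsn was steady at 11.60 ± 0.08. Cd34 went the other way with 6.44, 6.96, 8.45 and 8.31, and no gene of the list was without reads in all libraries. Of the 11 detected markers 7 were highest in library 1 on the deposited scale, as were 53.6% of all detected genes. The profile was not limited to this list. Of the detected markers of all cell types, Notch3, with 5.94, 4.87, 3.34 and 3.04, was nearest to Pdgfra (0.25), ahead of Pi16 (0.37). Notch3 was listed here with the pericyte markers, of which Mcam and Cox4i2 were far from Pdgfra (2.15 for each). The part of fibroblast-like or other cells in the Pdgfra values was not tested.

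Contractile markers had another profile, with list medians of 7.10, 5.60, 8.13 and 8.75. Myh11, which encodes smooth muscle myosin, had 7.12, 5.33, 8.08 and 9.24, lowest in library 2 and highest in library 4, as was Pdgfb. The summed level was 12.98, 11.86, 13.51 and 14.01, and 8 of the 9 detected markers were highest in library 4, against 10.8% of all detected genes. The part of this difference in the Pdgfb values was not tested.

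**Figure D5:**
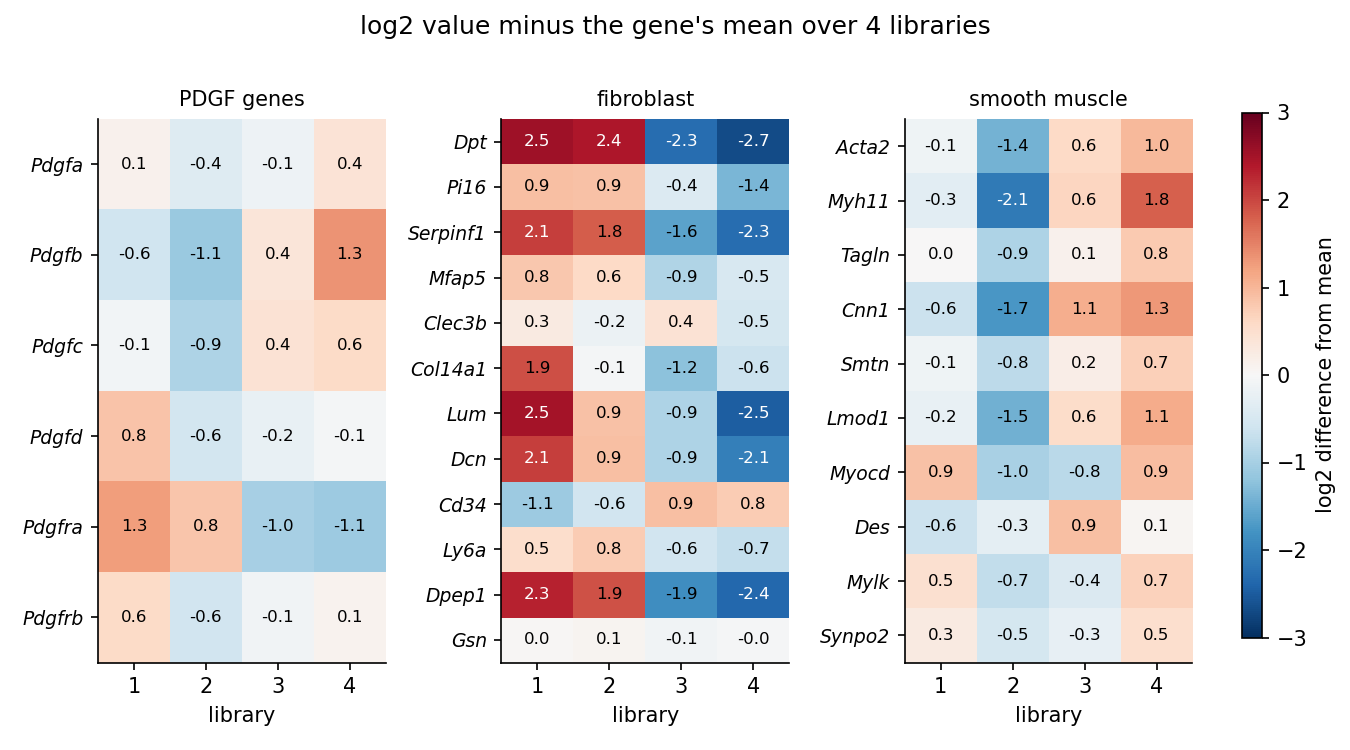
Log2 value minus the gene's own mean over the 4 libraries (colour and printed number) for the PDGF genes, adventitial fibroblast markers and smooth muscle markers. Pdgfra and most fibroblast markers are above their means in libraries 1 and 2, and Pdgfb and most smooth muscle markers are highest in library 4.

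Defining markers of endothelium and platelets, the classical suppliers of PDGF-B, were low. Of 10 endothelial markers 6 were detected, with summed levels of 6.31, 5.85, 6.39 and 4.86. Pecam1 had 3.49, 3.02, 3.83 and 1.46, Tie1 averaged 3.42 ± 0.80, and Cdh5 had 206, 78, 45 and 25 reads. All 3 were lowest in library 4, where Pdgfb was highest. Tek, Egfl7, Emcn and Esam were also lowest there, and Robo4 had no reads in libraries 3 and 4. Vwf (2.78, 2.37, 3.63 and 2.75) was lowest in library 2 and Cldn5 (38, 35, 6 and 15 reads) in library 3. On the log2 scale the means of Pecam1 (2.95) and Tie1 were above that of Pdgfb (2.61), without division by length. Per exon kilobase Tie1 (1.12 ± 0.80) was still above Pdgfb (0.55 ± 1.08), but Pecam1 (0.31 ± 1.04) was below it. The part of endothelial cells in the Pdgfb values was not tested. Of 6 platelet markers 1 was detected, Itga2b (3.36 ± 0.43). Pf4 had 8, 31, 0 and 0 reads, and Ppbp, Gp9 and Treml1 had none in any library. By a 1-sided 95% bound, unlike the exact intervals above, this allows up to 3 reads in each. The summed level of the platelet list was 3.20 to 4.02.

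Of 8 pericyte markers 4 were detected, with summed levels of 8.14 to 9.66. Rgs5 averaged 7.77 ± 0.47, Kcnj8 had 66, 56, 10 and 41 reads and Abcc9 63, 42, 9 and 80, and Higd1b had none. Cox4i2 had 6.24, 6.53, 8.85 and 8.21 and Mcam 5.50, 3.82, 6.53 and 6.99, both higher in libraries 3 and 4, unlike Notch3. Of 10 leukocyte markers 2 were detected, with summed levels of 6.07, 5.73, 3.79 and 3.73. Ptprc had 13, 27, 0 and 12 reads, Emr1 14, 4, 0 and 0, and Csf1r averaged 3.76 ± 0.64, while Cd3e and Cd79a had none. Lyz2, the other detected marker, had 927, 441, 68 and 39 reads. C1qa had 173, 201, 0 and 18 and C1qb 192, 239, 0 and 0. These genes were higher in libraries 1 and 2, as Pdgfra was, but Cd68 (49, 35, 42 and 21 reads) did not share that split. The part of leukocytes in the Pdgfra values was not tested. Of 8 glial markers 2 were detected, with summed levels of 7.41 to 8.87. Sox10 had at most 9 reads and Olig2 had none.

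The wider pathway was covered by 8 lists with 94 genes, of which 89 were detected (94.7%, against 47.4% of all genes). The median of the detected genes was 5.46, beside 5.09 over all detected genes. An SD above 0.5 was found for 49 of the 89 (55.1%, against 40.5% of all detected genes). After median-ratio scaling it was found for 34 (38.2%, against 30.7% of all detected genes). The counts by list are on the deposited scale. Median-ratio scaling lowered them from 5 to 4 for ligand processing and from 7 to 5 for extracellular modulators. It lowered them from 9 to 4 for adaptors and effectors, 7 to 4 for negative regulators and 7 to 3 for the kinase cascades. For genes that PDGF can induce the count rose from 8 to 9.

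All 7 genes of proteases that process PDGF precursors were detected. Of these, 5 had an SD above 0.5 (71.4%, against 40.5% of all detected genes). The proprotein convertase genes Furin, Pcsk5 and Pcsk6, whose products cut PDGF-A and PDGF-B precursors, averaged 7.22 ± 0.54, 6.36 ± 0.97 and 7.21 ± 0.68. Plat, the tissue plasminogen activator gene, whose product releases active PDGF-C, had 4.93, 5.08, 2.42 and 3.04. Plau, the urokinase gene, whose product can activate PDGF-D, had 5.91, 6.13, 7.09 and 7.78. Across these 4 libraries Plat was thus high where Pdgfra was high, and Plau high where Pdgfra was low.

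Of 9 extracellular modulators 8 were detected and 7 had an SD above 0.5 (87.5% of these, against 40.5% of all detected genes). Sparc, whose product binds PDGF-B, averaged 12.94 ± 0.37. Lrp1, the endocytic receptor gene whose product associates with PDGFRB, averaged 10.48 ± 0.78, and the coreceptor genes Nrp1 and Nrp2 6.98 ± 0.51 and 2.41 ± 0.73. Cspg4, the NG2 proteoglycan gene, had 8.74, 8.24, 10.42 and 10.77, lower in the libraries high in Pdgfra. The gene below detection was A2m, with 6, 0, 0 and 0 reads.

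All 23 adaptor and effector genes were detected, 9 of them with an SD above 0.5 (39.1%, against 40.5% of all detected genes). Shc1, an adaptor gene, averaged 8.37 ± 0.20, Slc9a3r1, a scaffold gene, 6.80 ± 0.18, and Grb2 6.52 ± 0.37. The RAS exchange factor genes Sos1 and Sos2 were lower, at 2.75 ± 0.74 and 3.43 ± 0.77. Stat3 had the widest spread of the list, at 7.73 ± 0.87.

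All 12 negative regulators were detected, 7 with an SD above 0.5 (58.3%, against 40.5% of all detected genes). The phosphatase genes Ptpn11 and Ptpn2 averaged 9.00 ± 0.54 and 3.65 ± 0.65, and Ptpn1 lay between 6.52 and 7.48. Ptpn11 encodes SHP2, which also carries the signal forward. Spry2, a feedback inhibitor gene, averaged 7.80 ± 0.41. Socs3 had 4.66, 4.61, 2.80 and 2.93, with libraries 1 and 2 above libraries 3 and 4 as for Pdgfra.

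All 15 genes of the RAS-ERK and PI3K-AKT cascades were detected, 7 with an SD above 0.5 (46.7%, against 40.5% of all detected genes). Akt1 averaged 9.62 ± 0.39, Hras1 8.66 ± 0.32, Mapk3, which encodes ERK1, 8.44 ± 0.24, and Nras 7.18 ± 0.19. Pdpk1 was low and spread widely, at 3.60 ± 0.89.

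Of 17 genes that PDGF can induce 16 were detected, 8 with an SD above 0.5 (50% of these, against 40.5% of all detected genes). Ccnd1, the cyclin D1 gene, averaged 10.26 ± 0.61, and Ier2 7.45 ± 0.70, against 4.23 ± 0.64 for Myc. The immediate early genes Fos and Fosb were close to the threshold, at 1.36 ± 0.74 and 1.23 ± 0.36. Other genes of the list were higher, among them Junb (6.90 ± 0.26), Egr1 (6.74 ± 0.47), Ier3 (6.12 ± 0.24), Fosl1 (5.35 ± 0.33) and Nr4a1 (3.70 ± 0.31). Egr2 differed most, with 1.72, 0.54, 3.54 and 3.61. Egr3 was below detection with 19, 14, 28 and 73 reads.

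The related ligand genes of the vascular endothelial growth factor family were all 5 detected. Of them, 3 had an SD above 0.5 (60%, against 40.5% of all detected genes). Figf, the older symbol of the VEGF-D gene, was highest at 8.05 ± 0.69, followed by Vegfa (6.60 ± 0.21). Vegfb averaged 4.27 ± 0.16 and Vegfc 1.58 ± 0.99. Per exon kilobase the Figf level was 6.78 ± 0.69, beside 6.05 ± 0.34 for Pdgfa.

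Of the 6 related receptor tyrosine kinase genes 3 were detected. All 3 had an SD above 0.5 on the deposited scale, against 40.5% of all detected genes, and 2 of them after median-ratio scaling, where that of Csf1r was 0.41. Flt1 averaged 4.07 ± 0.75, Csf1r 3.76 ± 0.64 and Flt4 3.26 ± 0.97. Kit had 54, 6, 0 and 0 reads, Flt3 1, 2, 0 and 0, and Kdr 30, 18, 5 and 1. Per exon kilobase the highest of them, Csf1r at 1.23 ± 0.64, compared with 2.60 ± 1.22 for Pdgfra and 7.06 ± 0.48 for Pdgfrb.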

How the data were processed

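The table deposited by the authors holds log2 values of 25965 genes, in 1 column for each of 4 libraries. Per the labels' protocols, libraries were made with a stranded poly(A) kit from 4 ug of total RNA with integrity numbers of 7.8 to 9. The submitters' processing notes name Trim Galore, cutadapt, TopHat and GRCm38. For the counter, its annotation and its use of strand, the sources used here give nothing. Judged from the values, whole reads per gene were multiplied by a constant of the library and logged, without division by length, and 0 reads were entered as 0.9. Dividing by the smallest step gave back the reads, and 99.8% to 99.9% of values were within 0.05 read of a whole number. What counts as a read is not stated.

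Columns were assigned by the library names in the sample titles, and libraries were numbered in accession order. The members and gene lists were chosen with earlier results of these data known. Hras was matched as Hras1 and the VEGF-D gene as Figf. Exon, transcript and coding lengths came from GENCODE M21 on GRCm38, matched by symbol and overlapping position for 94.6% of genes, while printed gene coordinates are those of the table. Named were the 6 PDGF genes, the first 3 listed genes, 2 highest per exon length and most variable detected gene of each pathway list, the first 3 of each marker list, and the 5 nearest profiles of each PDGF gene with an SD above 0.5. Other genes named (Myocd, Gsn, Cd34, Notch3, Vwf, Cldn5, A2m, Egr3, Kdr and markers without reads) were chosen after their values were seen, and a few genes that the rule names are not reported here. The nearest profiles exclude mitochondrial genes, RNA genes and numbered gene models. Pairs were tested with a two-sided exact permutation test over 16 sign arrangements and Benjamini-Hochberg adjustment over 15 pairs.

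The alternatives were median-ratio size factors, other lengths or none, other thresholds, no filter, list means and leaving out each library. The scripts were tested on simulated data. Scripts ran under Python 3.11.15 with pandas 2.3.3, scipy 1.17.1, matplotlib 3.10.9 and numpy 2.4.6.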

Additional observations from a re-analysis of the deposited data

Results flagged for a closer look

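Of 103 values examined for a library far from the other 3, namely the named genes and the 15 pairwise differences, 2 had a gap beyond Dixon's 95% critical value for 4 samples. Chance alone gives about 1 in 20 such gaps. Spry2, the feedback inhibitor gene, was lowest in library 1 at 7.19, against 7.97, 8.05 and 7.98 in libraries 2 to 4. Hras1, a RAS gene, was lowest in library 1 at 8.18, against 8.83, 8.82 and 8.80. After median-ratio scaling neither gap passed that value, with the gap at 0.679 of the range for Spry2 and 0.694 for Hras1. None of the 6 PDGF genes and none of their 15 pairwise differences had such a gap.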

How the results depend on the processing

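No paired analysis was possible because all libraries belong to 1 group. All 6 PDGF genes were detected under each threshold tried and without any 1 library. An SD above 0.5 was found for 3 to 5 of them when 1 library was left out, for 3 after median-ratio scaling and for 4 without a filter on low values, and an SD above 1 for 2, Pdgfra and Pdgfb. The direction of 12 of the 15 pairwise differences was kept under every length and without any 1 library. Pdgfrb minus Pdgfa turned to -0.56 with the coding length, and Pdgfc minus Pdgfra and Pdgfd minus Pdgfra to -0.040 and -1.12 without division by length. Without division by length Pdgfc minus Pdgfd (1.08), Pdgfd minus Pdgfra and Pdgfra minus Pdgfb (3.32) had 1 sign in 4 of 4 libraries. The 3 reversals follow from the division itself, since the reads were the same. Of the 94 pathway genes 83 and 90 were detected at log2 thresholds of 1 and -2, and 89 without any 1 library. The receptor to ligand ratio by length and the pathway SD counts by scaling, were chosen after seeing the data. The log2 ratio of summed receptors to summed ligands was 0.67 per exon length, 0.18 with the longest transcript, 1.42 without division by length and -0.78 with the coding length. The sign-flip test cannot give a p below 0.125 with 4 libraries. Depth limits Pdgfb most, with 82 reads in library 2.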
